A study of Mus musculus with 28 samples.

Results

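The cell cycle and proliferation genes described here are 42 genes, chosen by symbol for their roles in DNA replication, mitosis and the control of division. Their values were not a criterion, but earlier results of these data were known when they were chosen. All 42 were matched to an Ensembl gene identifier in both count tables, out of 55416 identifiers in the Dnm2 cohort and 55359 in the Bin1 cohort. The question was how their transcripts differed between healthy muscle, muscle of 2 mouse models of centronuclear myopathy, and muscle of mice given tamoxifen.

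RNA-seq was made from the tibialis anterior (TA) muscle of 28 mice in 7 groups of 4. The Dnm2 cohort held WT mice and Dnm2 S619L/+ mice (called Dnm2SL, heterozygous for a point mutation in the gene of the membrane fission protein dynamin 2), each with placebo or with tamoxifen supplied in the diet. The Bin1 cohort held WT mice with placebo and Bin1 mck-/- mice (called Bin1KO), in which the gene of the membrane-curving protein amphiphysin 2 is deleted in muscle only, with placebo or with tamoxifen. It held no WT mice with tamoxifen. According to the methods of the study the mice were of the C57BL/6N strain and 8 weeks old. Tamoxifen binds the estrogen receptor, as an antagonist in some tissues and an agonist in others. Bin1, the deleted gene, was lower in Bin1KO placebo than in WT placebo mice (log2 fold change of −3.26, SE 0.13, adjusted p by edgeR = 7.10e-10), and its remaining reads cannot be assigned to a cell type. The Dnm2 mutation changes a single base and cannot be seen in gene counts.

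Each library of the Dnm2 cohort took 300 ng of RNA, fragmented for 2 min, and each of the Bin1 cohort 350 ng, fragmented for 8 min, so mouse model and library protocol cannot be told apart and the groups were compared within a cohort. Reads on genes ranged from 15586333 to 109710886 per mouse in the Dnm2 cohort, both in WT placebo mice, and from 24671835 to 35136327 in the Bin1 cohort. Sex is not among the labels. Xist, the transcript of the inactive X chromosome of females, had reads at 70.8 CPM or more (CPM, reads of a gene scaled to a common library total) in 22 of the 28 mice, and at 0.967 CPM or less in the other 6, which carried reads of the Y-linked gene Ddx3y instead. These 6 were mice 2 and 3 of WT placebo, mice 3 and 4 of WT tamoxifen and mice 2 and 3 of Dnm2SL placebo, while all 4 Dnm2SL tamoxifen mice and the whole Bin1 cohort had Xist reads. Among the 8 skeletal muscle fiber markers checked (such as Acta1, Ckm and Myh4), none was without reads in any group. In bulk tissue, fewer cells of a type and less RNA per cell cannot be told apart. The labels do not say how the mice were bred or housed, so the p-values measure the spread between these mice.

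As background, a dividing cell duplicates its DNA in S phase, after the MCM helicase has been loaded on origins, and separates the copies in M phase on a spindle built by motor proteins and supervised by the Aurora, Polo-like and Bub kinases. Cyclins bound to their kinases drive these steps, E2F factors switch on the genes of S phase and FOXM1 and its partners those of G2 and M phase, and in resting cells the DREAM complex holds both sets down. Adult muscle fibers have left the cell cycle for good, so in muscle these genes are read mainly in satellite cells, the muscle stem cells, and in the other cells between the fibers, such as macrophages, fibroblasts and endothelial cells.

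Promoters of such genes often carry the cell cycle genes homology region (CHR, TTTGAA), through which DREAM binds, together with CCAAT boxes bound by NF-Y. Those of replication genes often carry an E2F site, searched for here as TTTCCCGC, TTTGGCGC, TTTCGCGC or TTTGCCGC. Both strands were read from 250 bases before to 50 bases after the annotated start. None of the motifs contains another of them, although matches may lie across each other. RefSeq (GRCm38.p6) gave such a window for 35 of the 42 genes. The stretches below are the 140 bases that end at the start site, read 5′ to 3′ on the strand of the gene, with the motifs in capitals (CHR also as TTCAAA and CCAAT also as ATTGG where the match is on the other strand). They are shown for genes that carry the results below, namely the proliferation marker Mki67, the chromosome gene Top2a, the M-phase kinase gene Cdk1 and its cyclin Ccnb2, Cdc20 and Kif11, with the replication gene Mcm6 as a contrast.
Mki67 (chr7:135716380-135716519, minus strand): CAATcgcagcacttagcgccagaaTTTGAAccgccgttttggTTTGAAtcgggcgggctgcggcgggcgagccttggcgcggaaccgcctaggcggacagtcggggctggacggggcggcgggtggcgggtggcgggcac
Top2a (chr11:99024190-99024329, minus strand): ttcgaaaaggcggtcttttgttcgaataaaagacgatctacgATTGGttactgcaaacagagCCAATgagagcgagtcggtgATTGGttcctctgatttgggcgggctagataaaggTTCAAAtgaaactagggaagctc
Cdk1 (chr10:69352913-69353052, minus strand): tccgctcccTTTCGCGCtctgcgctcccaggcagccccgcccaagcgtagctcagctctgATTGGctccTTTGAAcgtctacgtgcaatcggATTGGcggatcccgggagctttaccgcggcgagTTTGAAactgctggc
Ccnb2 (chr9:70421555-70421694, minus strand): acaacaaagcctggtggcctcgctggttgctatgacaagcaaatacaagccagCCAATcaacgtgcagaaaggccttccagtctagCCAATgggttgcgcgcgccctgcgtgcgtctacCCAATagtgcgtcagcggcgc
Cdc20 (chr4:118437344-118437483, minus strand): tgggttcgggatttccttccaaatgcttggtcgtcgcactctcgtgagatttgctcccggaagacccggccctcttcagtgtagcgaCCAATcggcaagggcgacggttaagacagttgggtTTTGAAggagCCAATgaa
Kif11 (chr19:37376242-37376381, plus strand): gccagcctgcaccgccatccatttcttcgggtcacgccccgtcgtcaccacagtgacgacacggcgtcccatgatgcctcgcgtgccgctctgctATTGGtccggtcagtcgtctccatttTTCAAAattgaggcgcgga
Mcm6 (chr1:128359706-128359845, minus strand): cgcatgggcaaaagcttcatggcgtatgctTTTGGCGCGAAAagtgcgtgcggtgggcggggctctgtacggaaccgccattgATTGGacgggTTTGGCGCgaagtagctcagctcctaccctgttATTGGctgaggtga

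In Mki67 the capitals at the left edge are the rest of a CCAAT box that begins just outside the stretch, and the first run of capitals in Mcm6 is a pair of E2F matches that overlap on opposite strands. Mki67, Cdk1 and Cdc20 held a CHR as TTTGAA in these stretches, and Top2a and Kif11 held it as TTCAAA. Ccnb2 held CCAAT boxes and no CHR in its stretch, but its 300-base window held a CHR at −167 and another at 5 from the start site. Mcm6 held E2F sites and CCAAT boxes and no CHR. The bases just after the RefSeq start of Mcm6 were not found in a GENCODE transcript of the gene, unlike those of the other genes shown. Over the 300-base windows, CHR was found in 19 of the 35 genes (54.3%) and in 17.9% of the 32851 promoters of the table. CCAAT was found in 29 of the 35 (82.9%) and in 37.4% of all promoters, and an E2F site in 6 (17.1%) and in 2.26%. CHR and CCAAT were found together in 18 genes (51.4%), against 6.95% of all promoters. By role, CHR was in 6 of 8 promoters of mitotic kinase, checkpoint and cyclin destruction genes, in 7 of 9 of spindle genes, in both of chromosome proteins and in 2 of 10 of replication genes. The E2F site was in 4 of the 10 replication promoters and in 2 of the 5 of cyclins and their kinases. It was found in no promoter of the other roles. These matches are descriptions of letters, and neither binding nor regulation was measured.

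The transcripts of these genes were scarce in muscle. Per kilobase of exon (GENCODE M21), mean levels in the Dnm2 cohort ranged from 0.0387 CPM for Ccnb1, cyclin B1, to 5.55 CPM for Ube2c, which encodes the ubiquitin-conjugating enzyme that helps to destroy cyclins in mitosis. After Ube2c the highest were Pcna, the sliding clamp of DNA polymerase (3.36), Rrm1, the large subunit of ribonucleotide reductase (3.07), and Ccnd1, cyclin D1 (3.03). Among those that lay lower were the chromosome genes Mki67 at 0.326 and Top2a at 0.32, and Cenpf at 0.0579 CPM per kilobase. Roles were mixed in this order. The mitotic kinase gene Aurka, at 1.34, lay above the replication gene Mcm6, at 1.21, and the replication gene Tyms lay at 0.171. Ccnb1 did not pass the filter on low counts and 41 genes were tested in each comparison. In the Dnm2 cohort 6 values of 4 genes (Ccnb1, Ccnb2, Bub1 and Cenpe) were at 0 reads, and in the Bin1 cohort 13 values of 4 genes (Ccnb1, Aurkb, Bub1 and Bub1b). A count of 0 allows up to 3 reads, which is 0.0304 to 0.237 CPM in the mice of the Dnm2 cohort and 0.0799 to 0.131 CPM in those of the Bin1 cohort, for counting error only.

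Reads of 9 of the 42 genes could be shared with an expressed gene on the opposite strand, since the libraries mark strand and the setting of the count is not given. The widest gap is that of Ube2c, which overlaps Tnnc2, a troponin gene of fast muscle at a mean of 6567 CPM in the Dnm2 cohort and 8411 in the Bin1 cohort. The level of Ube2c is therefore uncertain. The others are Mcm7, Cdc45, Ccnd1, Ccna2, Cdca8, Cdc20, Kif20a and Prc1, and the same limit holds for their values below. In the Dnm2 cohort Cdc20 had a mean of 0.677 CPM beside 11.5 for Elovl1, and Prc1 1.65 beside 6.67 for Rccd1. Kif20a had 1.45 beside 21.3 for Cdc23, and Ccna2 2.14 beside 19.55 for Exosc9. Of these others only Ccnd1 had a higher mean than its partner, LTO1 (14.3 against 12.2 CPM). Pcna has processed copies in the mouse genome that can share its reads.

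In the Dnm2 cohort, 1 placebo mouse of the Dnm2SL group stood apart from the rest of its group. The mean log2 CPM over the 42 genes was 0.55, 0.51, 0.48 and 1.52 in Dnm2SL placebo mice 1 to 4, and mouse 4 was the highest of its group for 35 of the 42 genes. Its 8 lymphocyte markers (such as Cd3e and Cd79b) summed to 18.8 CPM, against 1.34 to 1.69 CPM in the other 3 mice, and its 8 macrophage markers to 242 CPM, against 78.3 to 162. The part of these cells in its values was not tested. Results of the Dnm2SL placebo group are given with and without this mouse. The same mean over the 42 genes was 0.51, 0.11, −0.27 and 0.46 in WT placebo mice 1 to 4, 1.21, 1.72, 0.81 and 1.2 in WT tamoxifen mice and 1.12, 1.01, 1.43 and 1.17 in Dnm2SL tamoxifen mice. In the Bin1 cohort it was 0.62, 0.31, 0.35 and 0.23 in WT placebo mice 5 to 8, 0.40, 1.32, 0.88 and 1.34 in Bin1KO placebo mice 1 to 4 and 0.48, 0.97, 0.35 and −0.16 in Bin1KO tamoxifen mice. WT tamoxifen mice all lay above the WT placebo mice of their cohort on this scale.

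**Figure D1:**
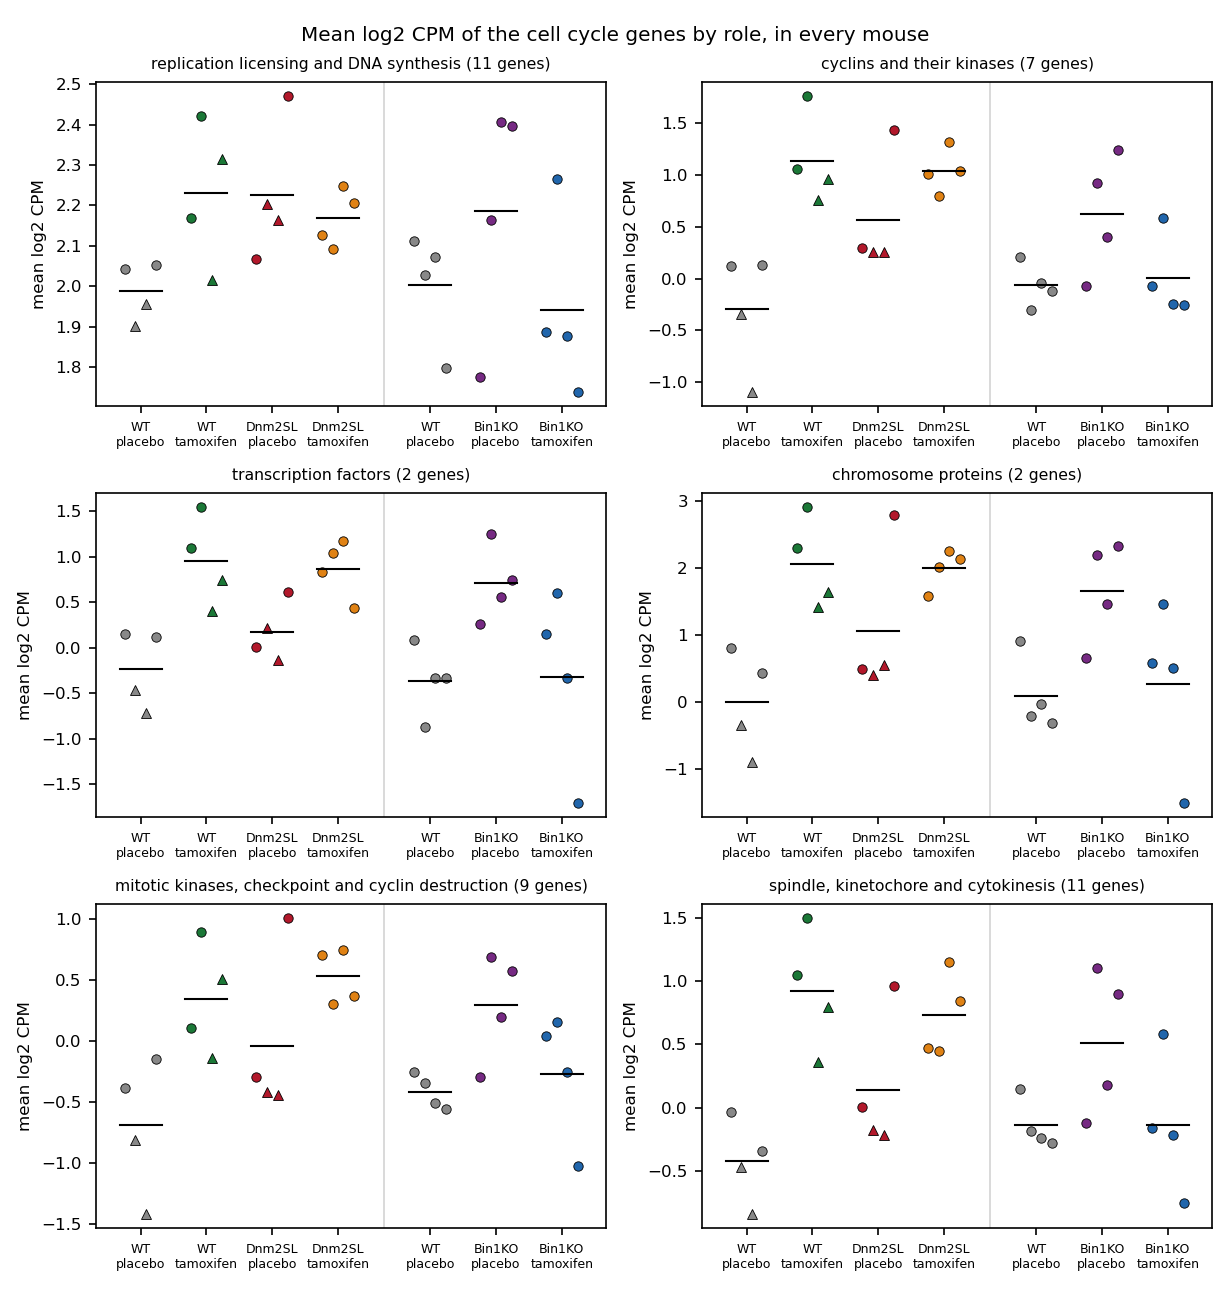
Mean log2 CPM of the genes of each role (y axis) in every mouse by group (x axis), 1 panel for each of the 6 roles, with circles for mice with Xist reads, triangles for mice without and lines for group means. Replication genes lie near the same level in all groups, while chromosome, mitosis and spindle genes are on average higher in the WT tamoxifen than in the WT placebo mice of the Dnm2 cohort, and Dnm2SL placebo mouse 4 lies above its group.

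In WT tamoxifen against WT placebo mice of the Dnm2 cohort, 22 of the 41 genes tested were higher and 1, Aurka, was lower at an edgeR adjusted p under 0.05. Of all 15439 genes tested, 15.8% were higher and 11.9% were lower in this comparison. The median log2 fold change of the 41 genes was 1.05, against −0.04 over all genes tested, and 37 of the 41 had a positive value.

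Most calls lay in genes of G2 and M phase. Of the 11 replication genes only Tyms, thymidylate synthase, rose (log2 fold change of 1.06, SE 0.25, adjusted p by edgeR = 0.00664), and their median log2 fold change was 0.17. The 6 helicase genes Mcm2 to Mcm7 had log2 fold changes from −0.11 (Mcm2) to 0.38 (Mcm6), and none passed the test. Rrm1 had 36.4, 42, 49.4 and 32.2 CPM in WT placebo mice 1 to 4 and 35.5, 32.6, 34.4 and 35.4 CPM in WT tamoxifen mice 1 to 4. These ranges overlapped (log2 fold change of −0.21, SE 0.16, adjusted p by edgeR = 0.341). Pcna had 6.29, 6.14, 6.64 and 8.06 CPM in WT placebo and 6.15, 6.72, 8.38 and 9.22 CPM in WT tamoxifen mice, again with overlap. Mcm3, part of the helicase, had 3.54, 3.59, 4.11 and 3.44 CPM and 3.42, 4.26, 3.25 and 4.38 CPM in the same groups.

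Among cyclins and their kinases, 4 of the 6 genes tested rose. These were Ccna2 (log2 fold change 1.96 ± 0.52, SE), the cyclin of S and G2 phase, Cdk1 (1.90 ± 0.45), the kinase of mitotic entry, its partner Ccnb2 and Ccne1 (1.14 ± 0.34), cyclin E1 of the G1/S transition. Ccnb2 had 0.669, 0.424, 0 and 0.491 CPM in the WT placebo mice and 1.35, 2.52, 1.04 and 1.14 CPM in the WT tamoxifen mice (log2 fold change of 1.63, SE 0.43, adjusted p by edgeR = 0.0113). Every WT tamoxifen mouse lay above every WT placebo mouse. Ccnd1, the cyclin that answers growth factors in G1, had 13.8, 11.3, 6.72 and 19.6 CPM and 15.2, 18.4, 9.28 and 9.56 CPM in the same groups. Its values overlapped widely and its log2 fold change was 0.02 ± 0.28 (SE). Both transcription factors rose. Foxm1 (ENSMUSG00000001517), the factor of G2 and M phase, had 0.841, 0.453, 0.474 and 0.782 CPM in WT placebo and 1.81, 2.49, 0.942 and 1.55 CPM in WT tamoxifen mice (log2 fold change of 1.30, SE 0.32, adjusted p by edgeR = 0.00745). E2f1 had 1.31, 0.962, 0.632 and 1.34 CPM and 2.39, 3.27, 1.70 and 1.69 CPM (log2 fold change of 1.01, SE 0.31, adjusted p by edgeR = 0.0245). Neither gene overlapped between these groups, and Foxm1 was called in all 27 fits made for this comparison (the alternatives of the closing section).

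Both chromosome proteins rose, and both are usual markers of dividing cells. Mki67 (ENSMUSG00000031004), which coats mitotic chromosomes and gives the Ki-67 antigen, had 2.11, 0.849, 0.712 and 1.34 CPM in WT placebo mice 1 to 4 and 4.99, 7.59, 2.83 and 3.52 CPM in WT tamoxifen mice 1 to 4 (log2 fold change of 1.80, SE 0.53, adjusted p by edgeR = 0.0202). Top2a (ENSMUSG00000020914), the topoisomerase that untangles sister chromatids, had 1.35, 0.623, 0.316 and 1.25 CPM and 4.79, 7.32, 2.40 and 2.66 CPM (log2 fold change of 2.11, SE 0.55, adjusted p by edgeR = 0.0108). In both genes the lowest treated mouse was above the highest placebo mouse, and mouse 2 was the highest treated mouse.

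Of the 9 mitotic kinase, checkpoint and cyclin destruction genes, 5 rose and 1 fell. Cdc20 (ENSMUSG00000006398), the activator of the anaphase-promoting complex, had 0.385, 0.0849, 0.237 and 0.335 CPM in WT placebo and 0.865, 1.44, 1.08 and 1.07 CPM in WT tamoxifen mice (log2 fold change of 1.81, SE 0.33, adjusted p by edgeR = 0.00123), where the lowest values stand for 3 reads each in WT placebo mice 2 and 3. Bub1 (ENSMUSG00000027379), a kinase of the spindle checkpoint, had 0.182, 0.170, 0 and 0.0893 CPM and 0.442, 1.26, 0.282 and 0.725 CPM (log2 fold change of 1.97, SE 0.66, adjusted p by edgeR = 0.0370). WT placebo mouse 3 had no Bub1 read, and Bub1 was called in 17 of the 25 fits that tested it. The other 3 that rose were Aurkb, Birc5 and Bub1b, of which the first 2 belong to the chromosomal passenger complex, and they had log2 fold changes of 1.28, 1.43 and 1.16. Aurka (ENSMUSG00000027496), the Aurora kinase of centrosomes and spindle poles, went the other way, with 4.5, 4.41, 5.53 and 5.76 CPM in WT placebo and 3.0, 3.03, 3.34 and 2.97 CPM in WT tamoxifen mice (log2 fold change of −0.70, SE 0.22, adjusted p by edgeR = 0.0249). Its groups did not overlap. Ube2c had 3.38, 2.97, 3.79 and 13.8 CPM and 1.95, 3.93, 3.06 and 4.04 CPM, so that WT placebo mouse 4 lay far above the rest, and its log2 fold change was −0.90 ± 0.72 (SE, not called).

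Of the 11 spindle, kinetochore and cytokinesis genes, 8 rose. The smallest p of all 41 genes was that of Anln (ENSMUSG00000036777), the actin-binding protein of the cleavage furrow, with 1.64, 1.58, 2.06 and 1.16 CPM in WT placebo and 3.44, 3.81, 3.34 and 3.38 CPM in WT tamoxifen mice (log2 fold change of 1.11, SE 0.19, adjusted p by edgeR = 8.49e-04). Nusap1 (ENSMUSG00000027306), a microtubule protein of the spindle, had 0.598, 0.566, 0.632 and 0.536 CPM and 1.81, 3.06, 1.98 and 1.86 CPM (log2 fold change of 1.81, SE 0.33, adjusted p by edgeR = 0.00130). Hmmr (ENSMUSG00000020330), a protein of spindle assembly, had 0.253, 0.141, 0.237 and 0.112 CPM and 1.09, 1.68, 0.330 and 0.967 CPM (log2 fold change of 2.16, SE 0.46, adjusted p by edgeR = 0.00311). No WT tamoxifen mouse overlapped the WT placebo mice in these 3 genes, and Anln and Nusap1 were called in 27 of 27 fits. The largest log2 fold change among the 41 genes was that of Prc1, which bundles the microtubules of the central spindle (2.30 ± 0.47, SE). Kif20a, Cenpf, Cenpe and Tpx2 rose by 1.31, 1.73, 1.71 and 0.75 on the log2 scale. Kif11, Kif23 and Cenpa did not pass the test. Kif11 (ENSMUSG00000012443), the motor that pushes spindle poles apart, had 1.66, 0.905, 0.870 and 1.21 CPM and 1.97, 3.39, 1.65 and 1.35 CPM with overlap. Cenpa, the histone of centromeres, had 2.52, 2.55, 2.69 and 3.51 CPM and 2.21, 3.48, 2.17 and 3.69 CPM.

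**Figure D2:**
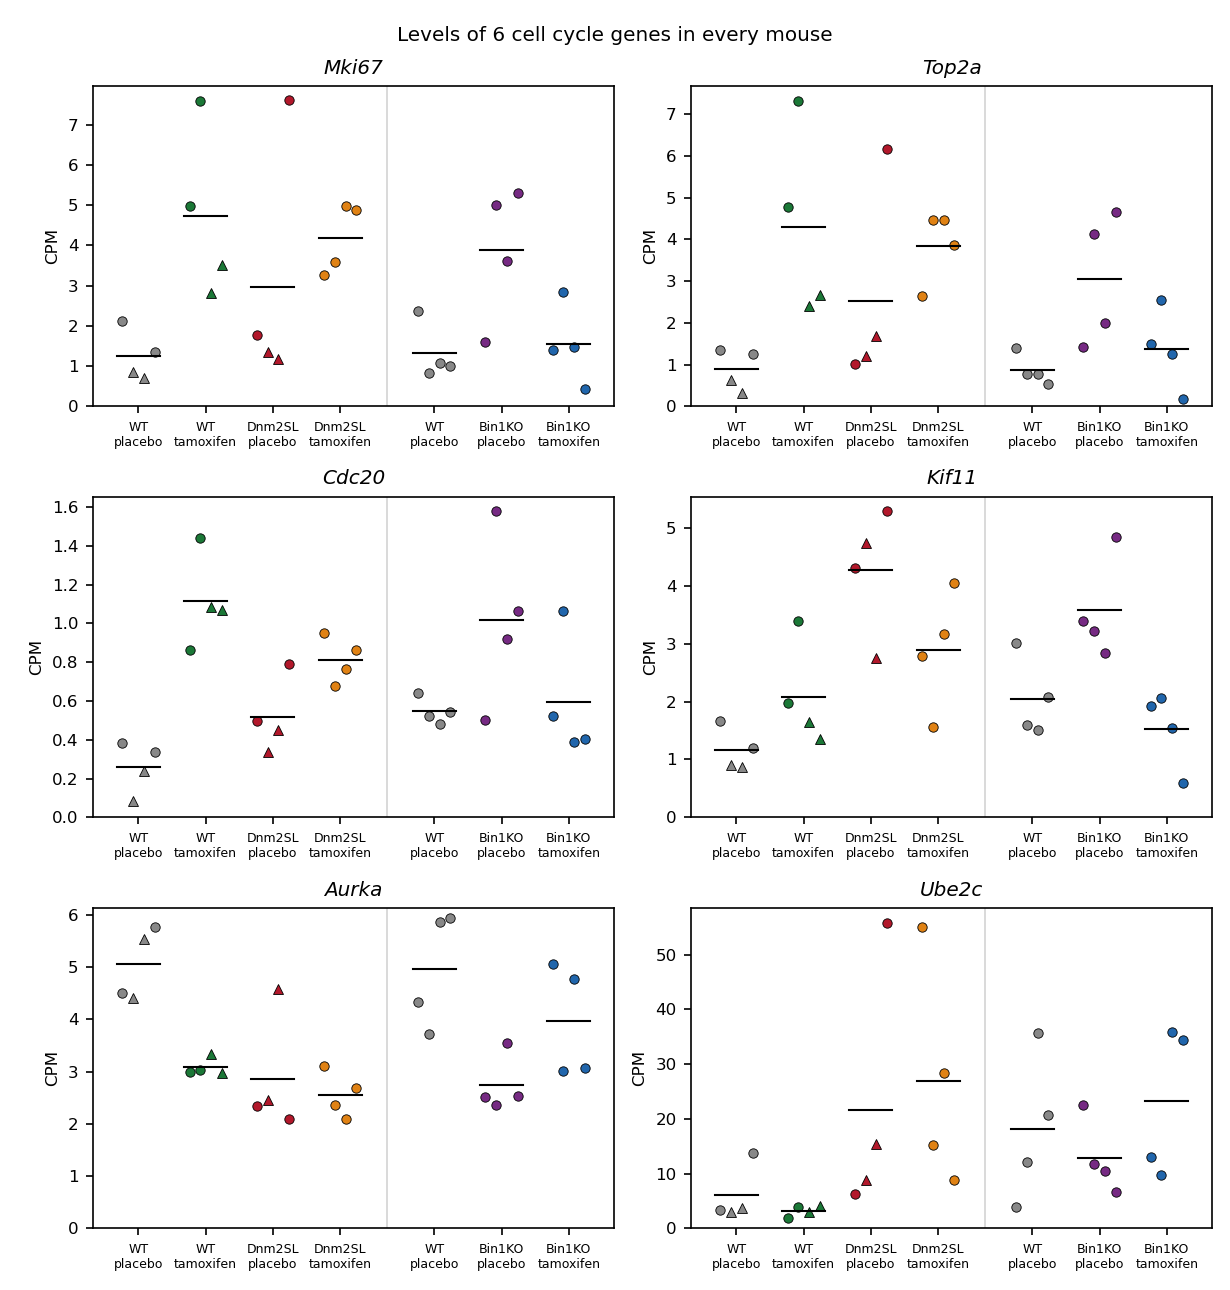
CPM (y axis) of Mki67, Top2a, Cdc20, Kif11, Aurka and Ube2c in every mouse of the 7 groups (x axis), with circles for mice with Xist reads, triangles for mice without and lines for group means. Mki67, Top2a and Cdc20 separate WT tamoxifen from WT placebo mice, Kif11 separates Dnm2SL placebo from WT placebo mice, and Aurka is lower in WT tamoxifen than in WT placebo mice.

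WT tamoxifen mouse 2 was the highest of the Dnm2 cohort for 21 of the 42 genes. Without it 11 genes were called in place of 23 and the median log2 fold change was 0.79, and the share of all genes called in that fit is not given. Without WT placebo mouse 3, the shallowest library and the lowest of its group for 22 genes, 14 were called. The treated and the placebo group each held 2 mice with Xist reads and 2 without. Within the mice with Xist reads 35 of the 41 genes were higher under tamoxifen, with a median difference of 0.94 in log2 CPM, and within the mice without 36 of 41 were, with a median of 1.01. In a fit of the mice with Xist reads only, which has fewer samples, 9 genes were called, and Mki67, Top2a, Cdk1 and E2f1 were among the 14 lost. Ccnb1, which was below the filter, had a log2 fold change of 2.09 ± 0.48 (SE) when all genes were tested (edgeR adjusted p = 0.00483).

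These calls were also counted by promoter motif. Of the genes with a promoter window, 10 of 19 with a CHR and 7 of 15 without were called higher in WT tamoxifen mice, as were 1 of 6 with an E2F site and 16 of 28 without. All 6 without a CCAAT box were called higher, against 11 of 28 with one. The median log2 fold change was 1.11 with a CHR and 0.58 without, 0.74 with a CCAAT box and 1.13 without, and 0.33 with an E2F site and 1.08 without. These counts and medians were not tested.

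Markers of cells between the fibers differed in the same mice. Of the 8 macrophage markers, 6 rose in WT tamoxifen mice (such as Cd68, log2 fold change 2.49, and Csf1r, 2.14), and the 8 summed to 102, 85.0, 61.8 and 61.2 CPM in WT placebo and to 224, 300.2, 154 and 149.7 CPM in WT tamoxifen mice, without overlap. Of the 7 osteoblast and osteocyte markers tested, 6 rose (such as Sp7, 7.37, and Ibsp, 9.45, on the log2 scale), and the 9 summed to 2.37 to 2.75 CPM in placebo and 213 to 733 CPM in treated mice. Osteoclast markers rose in 6 of 7 (Mmp9, 7.61; Ctsk, 5.75), with a sum of 7.19 to 11.7 CPM in placebo and 263 to 1527 CPM in treated mice. Fibroblast markers rose in 5 of 7 (Lum, 4.02, and Col3a1, 3.58), chondrocyte markers in 4 of 6 (Acan, 6.46, and Col2a1, 3.38) and tendon markers in 5 of 5 (Thbs4, 3.09, and Scx, 1.57). By edgeR 0 of the 9 satellite cell and myoblast, 0 of the 7 endothelial and 0 of the 8 muscle fiber markers were called (0, 1 and 3 by DESeq2, and 2, 1 and 5 at an unadjusted p under 0.05). Pax7, the defining gene of satellite cells, had 5.74, 6.96, 3.95 and 6.19 CPM in placebo and 4.06, 2.19, 2.54 and 5.63 CPM in treated mice. Of neutrophil and marrow progenitor markers, Ms4a3 was without reads in both groups and Ctsg in the treated mice. WT tamoxifen mouse 2, the highest for the cell cycle genes, also had the highest macrophage and osteoblast sums. The part of any of these cells in the rise of the cell cycle genes was not tested.

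**Figure D3:**
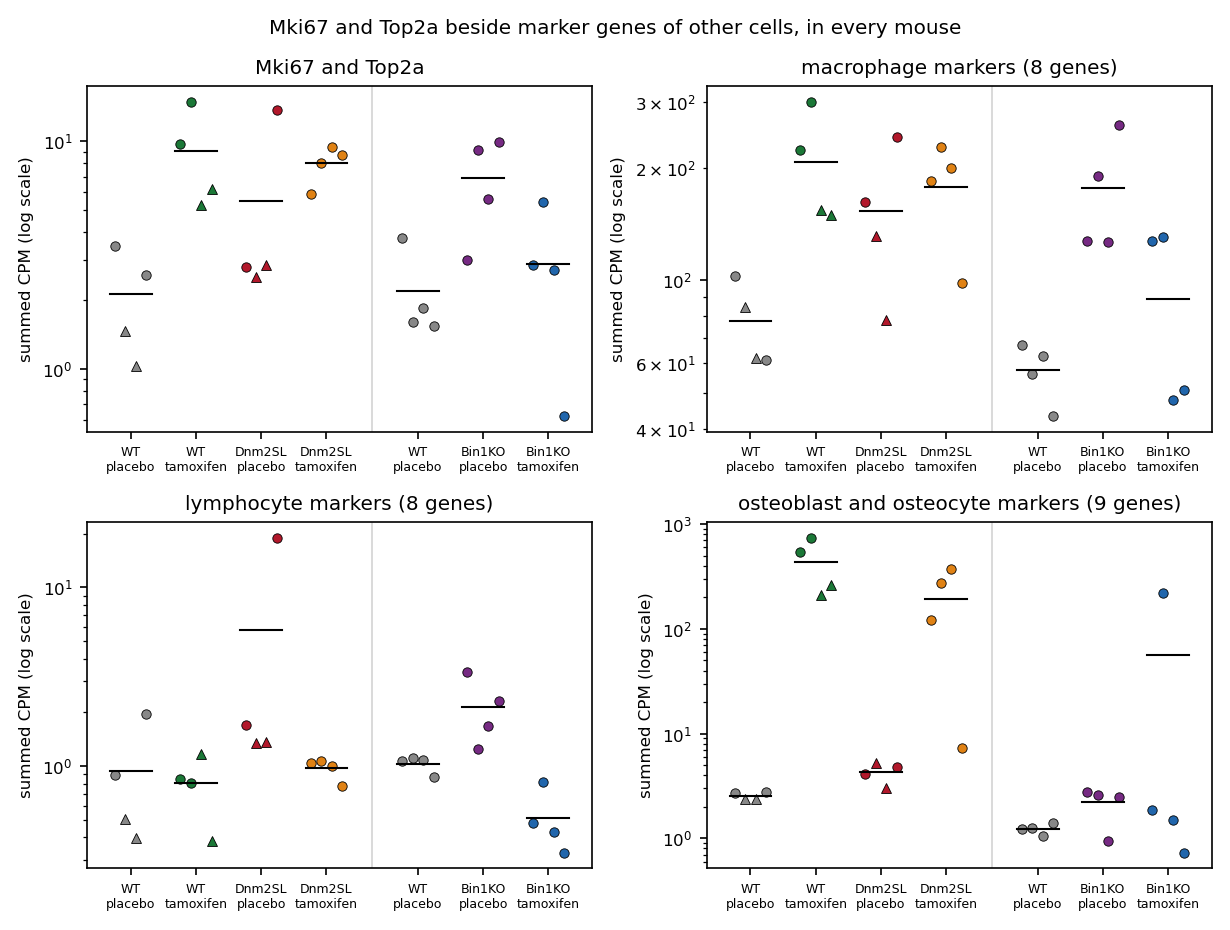
Summed CPM on a log scale (y axis) of Mki67 with Top2a, and of macrophage, lymphocyte, and osteoblast and osteocyte markers, in every mouse of the 7 groups (x axis), with circles for mice with Xist reads and triangles for mice without. Osteoblast and osteocyte markers lie at 213 to 733 CPM in WT tamoxifen mice against 2.37 to 2.75 CPM in WT placebo mice, and the lymphocyte sum of Dnm2SL placebo mouse 4 lies above all others.

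The Dnm2SL mutation went with a smaller set of calls than tamoxifen did, although the 2 sets were not compared by a test and both comparisons share the WT placebo mice. In Dnm2SL placebo against WT placebo mice 5 genes were higher and Aurka was lower (edgeR adjusted p under 0.05). This is 12.2% of the 41 higher, and among all 15439 genes tested 12.1% were higher and 9.81% lower. The median log2 fold change of the 41 was 0.49 (0.02 over all genes), and 35 were positive.

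Kif11 had the smallest p. It had 1.66, 0.905, 0.870 and 1.21 CPM in WT placebo and 4.30, 4.75, 2.76 and 5.30 CPM in Dnm2SL placebo mice (log2 fold change of 1.79, SE 0.33, adjusted p by edgeR = 0.00166). All Dnm2SL placebo mice lay above all WT placebo mice, and the gene was called in all 27 fits, including those without Dnm2SL placebo mouse 4. Of the 11 replication genes, 3 rose. Pcna had 6.29, 6.14, 6.64 and 8.06 CPM and 8.43, 9.74, 9.23 and 10.7 CPM (log2 fold change of 0.49, SE 0.14, adjusted p by edgeR = 0.0204). Its groups did not overlap. Rrm2, the small and regulated subunit of ribonucleotide reductase, and Tyms had log2 fold changes of 0.82 ± 0.24 and 0.84 ± 0.26 (SE). Ccne1 rose by 1.05 ± 0.35. Aurka had 4.5, 4.41, 5.53 and 5.76 CPM in WT placebo and 2.34, 2.45, 4.57 and 2.10 CPM in Dnm2SL placebo mice (log2 fold change of −0.81, SE 0.22, adjusted p by edgeR = 0.0161), and Dnm2SL placebo mouse 3 lay within the WT range.

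Mitosis genes were high mainly in mouse 4. Mki67 had 1.78, 1.34, 1.18 and 7.60 CPM in Dnm2SL placebo mice 1 to 4, so that the first 3 mice lay within the WT placebo range of 0.712 to 2.11 CPM. Its log2 fold change was 1.14 ± 0.53 (SE, not called). Top2a had 1.01, 1.2, 1.68 and 6.17 CPM (log2 fold change of 1.34, SE 0.55, adjusted p by edgeR = 0.0908). Foxm1 had 0.586, 0.672, 0.724 and 1.43 CPM and Nusap1 had 0.676, 0.576, 0.679 and 1.74 CPM. In each of these genes mouse 4 lay above the other 3 mice. Bub1 had 0.180, 0.144, 0 and 1.15 CPM, with no read in mouse 3. Ccnb2 had 0.811, 0.672, 0.679 and 1.54 CPM, a range that did not overlap with that of WT placebo mice. Cdc20 had 0.496, 0.336, 0.453 and 0.791 CPM. Hmmr had 0.180, 0.0960, 0.136 and 0.554 CPM and Anln had 1.87, 1.82, 1.54 and 2.33 CPM. Mouse 4 was again the highest of its group in these genes, while it was the lowest for Aurka. E2f1 had 1.51, 1.78, 0.996 and 1.5 CPM, with mouse 2 the highest. Without mouse 4 only Kif11 was called and the median log2 fold change was 0.14. With Xist as a covariate 11 genes were called, with Ccna2, Cdk1, Mki67, Prc1 and Top2a added, and in a fit of the mice with Xist reads only 2 were called, with Ccne1, Pcna, Rrm2 and Tyms lost. Within mice with Xist reads 33 of 41 genes were higher in Dnm2SL placebo mice and within those without 34 of 41, with a median difference of 0.54 in log2 CPM in each.

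Rrm1 had 30.5, 29.6, 37.0 and 23.0 CPM in Dnm2SL placebo mice (log2 fold change of −0.41, SE 0.16, adjusted p by edgeR = 0.0756). Mcm3 had 3.54, 3.59, 4.11 and 3.44 CPM in WT placebo and 3.61, 3.89, 4.39 and 5.54 CPM in Dnm2SL placebo mice. Both genes overlapped between the groups, as did Ccnd1 (9.96, 10.6, 13.7 and 17.3 CPM in Dnm2SL placebo mice) and Cenpa (2.23, 2.83, 2.67 and 4.04 CPM). Ube2c had 6.33, 8.83, 15.3 and 55.8 CPM, and its log2 fold change of 1.82 ± 0.71 (SE) did not pass the test.

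Markers of other cells differed here too. Of the macrophage markers 3 of 8 rose (C1qa, 1.41, and C1qc, 1.32, on the log2 scale), and the 8 summed to 162, 132, 78.3 and 242 CPM in Dnm2SL placebo mice, beside 61.2 to 102 CPM in WT placebo mice. Of 9 satellite cell and myoblast markers, Pax7 fell by 2.65 and 2 rose, among them Myog, the factor of differentiating myoblasts (2.83). Pax7 had 1.47, 1.01, 0.407 and 0.475 CPM in Dnm2SL placebo mice. Endothelial markers fell in 5 of 7 (Pecam1, −0.92, and Vwf, −0.70). Tendon markers rose in 3 of 5 (Scx, 1.83, and Thbs4, 1.98) and chondrocyte markers in 2 of 6, Sox9 (1.87) and Col10a1, which had 21 reads in all Dnm2SL placebo mice together and 1 in WT placebo mice. Single genes were called among fibroblast (Dpt, 0.45), erythroid (Alas2, −1.36), osteoclast (Calcr, −3.40) and muscle fiber markers (Myh4, −0.75), and of the 7 osteoblast markers 0 were called by edgeR and by DESeq2 and 0 had an unadjusted p under 0.05. Calcr went against the sum of its list. The osteoclast markers summed to 11.7, 9.08, 7.19 and 11.7 CPM in WT placebo and 20.35, 20.1, 17.2 and 20.1 CPM in Dnm2SL placebo mice. Which cells gave the Calcr reads was not tested. Bglap2, Mepe and Elane were without reads in this group. The part of these cells in the cell cycle values was not tested.

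Tamoxifen in Dnm2SL mice called none of the 41 genes. Dnm2SL tamoxifen mice against Dnm2SL placebo mice gave 0 calls by edgeR, with 5 genes at an unadjusted p under 0.05 (4 higher, 1 lower) and 1 call by DESeq2, Hmmr. Of all 15439 genes 8.27% were called at the adjusted threshold, and their share at an unadjusted p under 0.05 is not given. The median log2 fold change was 0.32, against −0.03 over all genes, and 32 of the 41 were positive.

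Hmmr had 0.180, 0.0960, 0.136 and 0.554 CPM in Dnm2SL placebo and 0.583, 0.598, 1.12 and 0.710 CPM in Dnm2SL tamoxifen mice (log2 fold change of 1.43, SE 0.47, adjusted p by edgeR = 0.0717). The groups did not overlap. Foxm1 had 0.586, 0.672, 0.724 and 1.43 CPM and 1.35, 1.44, 1.97 and 1.64 CPM (log2 fold change of 0.87, SE 0.32, adjusted p by edgeR = 0.107), where only placebo mouse 4 reached the treated mice. Mcm3 had 3.61, 3.89, 4.39 and 5.54 CPM and 2.73, 3.63, 3.37 and 3.49 CPM (log2 fold change of −0.39, SE 0.17, adjusted p by edgeR = 0.149). Mki67 had 3.25, 3.59, 4.97 and 4.88 CPM in Dnm2SL tamoxifen mice (log2 fold change of 0.48, SE 0.52, adjusted p by edgeR = 0.604). Top2a had 2.64, 4.46, 4.45 and 3.86 CPM (log2 fold change of 0.61, SE 0.53, adjusted p by edgeR = 0.509). In both genes the treated mice lay above placebo mice 1 to 3 and below placebo mouse 4. Cdc20 had 0.951, 0.678, 0.762 and 0.864 CPM, above the same 3 placebo mice.

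Bub1, Ccnb2, Nusap1 and Anln overlapped between these groups. Bub1 had 0.521, 0.399, 0.562 and 0.648 CPM and Ccnb2 had 1.35, 0.997, 1.36 and 1.05 CPM in Dnm2SL tamoxifen mice. Nusap1 had 0.859, 0.757, 1.60 and 1.36 CPM and Anln had 2.12, 2.19, 2.61 and 3.02 CPM. Their log2 fold changes were 0.48, 0.34, 0.30 and 0.38, none called. Kif11 had 2.79, 1.55, 3.17 and 4.04 CPM, with overlap (log2 fold change of −0.55, SE 0.32, adjusted p by edgeR = 0.292). Aurka had 3.10, 2.35, 2.09 and 2.69 CPM and a log2 fold change of −0.15 ± 0.22 (SE). Pcna had 8.49, 8.45, 8.26 and 8.03 CPM, below 3 of the 4 placebo mice, at −0.20 ± 0.14. E2f1 had 2.18, 2.79, 2.45 and 1.02 CPM, with mouse 4 the lowest. Rrm1 had 24.7, 28.7, 30.0 and 39.3 CPM, with mouse 4 the highest. Ccnd1 had 16.4, 17.7, 20.6 and 18.1 CPM and Cenpa had 3.07, 2.19, 4.53 and 3.98 CPM. These 4 genes had log2 fold changes of 0.52, 0.03, 0.50 and 0.23 and did not pass the test. Ube2c had 55.1, 15.3, 28.4 and 8.77 CPM in the treated mice, a spread about as wide as among the placebo mice.

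Without Dnm2SL placebo mouse 4, 5 genes were called higher in Dnm2SL tamoxifen mice, namely Ccna2, Cdk1, Foxm1, Hmmr and Mki67, and the median log2 fold change was 0.67. The share of all genes called in that fit is not given. All 4 treated mice had Xist reads, against 2 of the 4 placebo mice, and with Xist as a covariate 0 genes were called with a median of 0.13. Markers of bone cells rose in 6 of 7 (osteoblast and osteocyte) and in 5 of 7 (osteoclast, such as Mmp9, 6.52, and Acp5, 4.92). Sp7 had 1355 reads in the treated mice together and 3 in the placebo mice (461-fold after division by library size, 95% exact binomial interval 157 to 2236, counting error only). Bglap2 had 368 reads and none, at least 125-fold higher against 3 reads over the group. Their fitted log2 fold changes, another measure than these ratios of pooled reads, were 7.23 for Sp7 and 5.89 for Bglap2. The osteoblast sum was 120.3, 273, 374 and 7.29 CPM in Dnm2SL tamoxifen mice 1 to 4, beside 3.03 to 5.18 CPM in Dnm2SL placebo mice. Of the 8 macrophage markers 0 were called by edgeR and by DESeq2 and 0 had an unadjusted p under 0.05, with sums of 184, 227, 199.9 and 98.1 CPM. Dnm2SL tamoxifen mouse 4 had the lowest osteoblast and macrophage sums and, at 1.12, 1.01, 1.43 and 1.17 for the mean log2 CPM of mice 1 to 4, a cell cycle level among those of its group. Fibroblast markers rose in 3 of 7 (Col3a1, 2.24, and Col1a1, 2.77), chondrocyte markers in 2 of 6 (Acan, 6.78, and Col10a1, 2.82) and Myh8, the perinatal myosin listed with myoblasts, by 0.97. By edgeR no muscle fiber, endothelial, erythroid or tendon marker was called (1, 1, 1 and 0 by DESeq2, and 2, 1, 4 and 0 at an unadjusted p under 0.05). Elane, Ctsg, Ms4a3 and Rhag were without reads in the treated mice.

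Against WT placebo mice, Dnm2SL tamoxifen mice had 21 of the 41 genes higher and Aurka lower. Among all 15439 genes, 15.8% were higher and 13.1% lower in this comparison, whose WT placebo mice are those of the comparisons above. The median log2 fold change was 0.95. Prc1 (2.22 ± 0.47, SE), Cdk1 (1.95 ± 0.45) and Top2a (1.95 ± 0.55) were among those that rose. Rrm2 and Kif11 rose by 1.0 ± 0.24 and 1.23 ± 0.33. Aurka had a log2 fold change of −0.96 ± 0.22 and was called in all 27 fits. Ube2c rose by 2.14 ± 0.72, a call made in 18 of 27 fits. The count was 13 with Xist as a covariate and 2 with the mice that had Xist reads only, which left 2 WT placebo mice. Without WT placebo mouse 2, WT placebo mouse 3 or Dnm2SL tamoxifen mouse 3, it was 10, 13 and 11.

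Whether tamoxifen acted differently in WT and in Dnm2SL mice was tested as an interaction. None of the 41 genes passed by edgeR or by DESeq2, beside 0.259% of all 15439 genes. At an unadjusted p under 0.05 there were 10, all with a smaller rise in Dnm2SL mice, and the smallest p was that of Nusap1 (log2 difference −1.51 ± 0.47, SE, edgeR adjusted p = 0.194). The share of all genes at that unadjusted threshold is not given. The median of the 41 differences was −0.61, and −0.01 over all genes. It was −0.29 without Dnm2SL placebo mouse 4. The data therefore do not show that the rise in WT mice and its size in Dnm2SL mice differ.

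**Figure D4:**
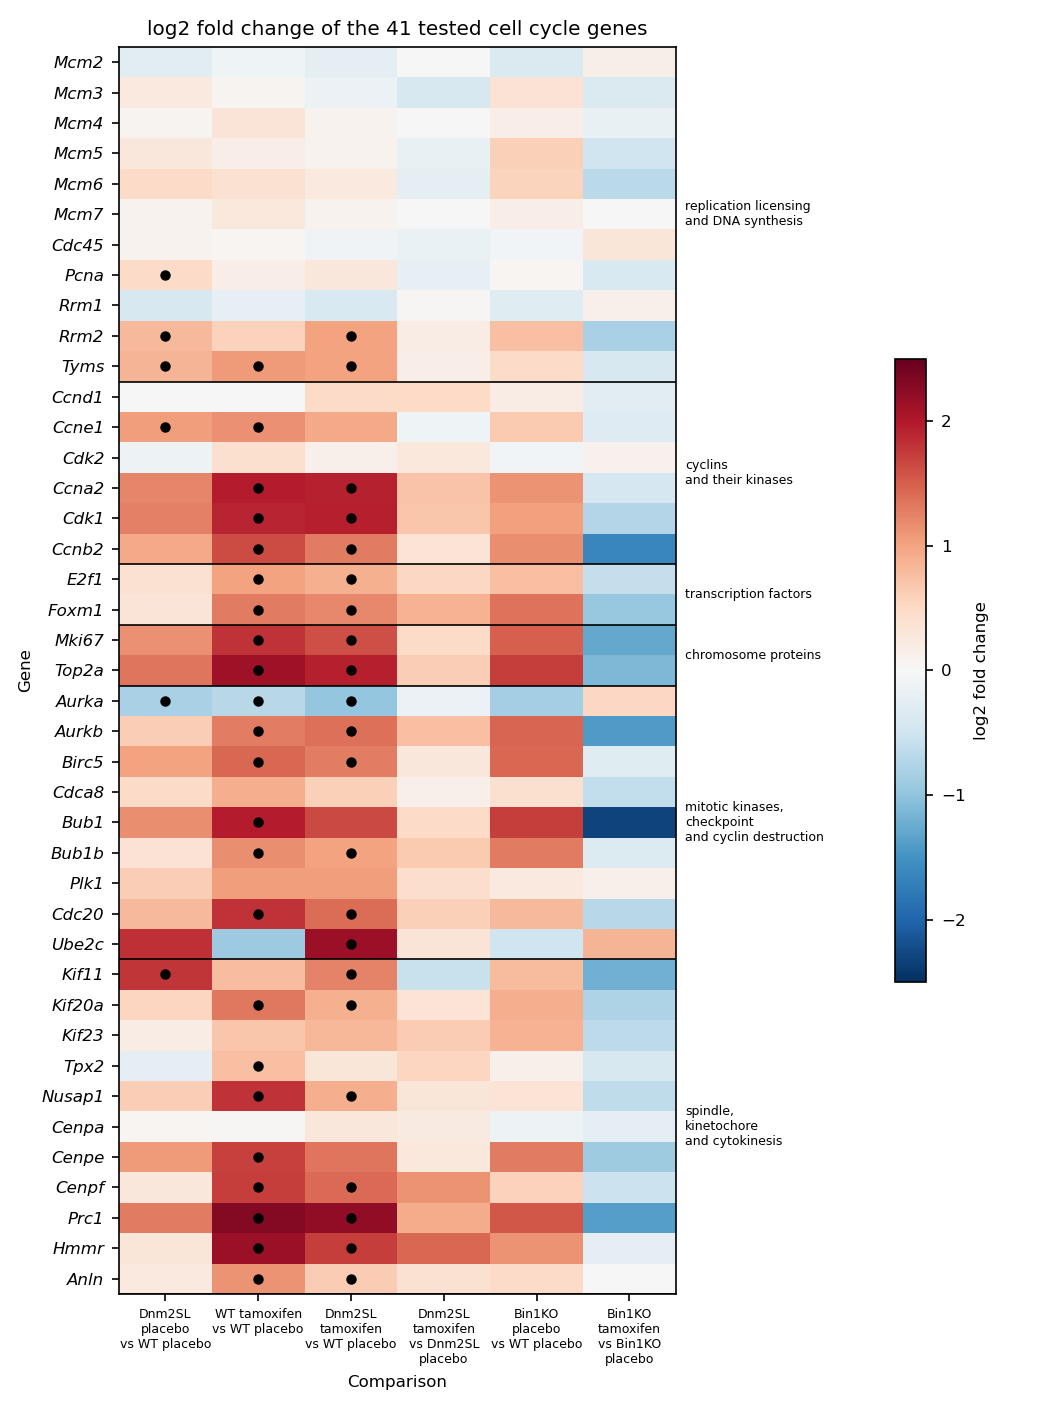
Log2 fold change (color) of the 41 tested genes (rows, by role) in 6 comparisons (columns), with a black dot where the edgeR adjusted p was under 0.05. The dots gather in the mitosis and spindle rows of the columns of WT tamoxifen and Dnm2SL tamoxifen mice against WT placebo mice, and there is none in the columns of Dnm2SL tamoxifen against Dnm2SL placebo mice and of the Bin1 cohort.

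In the Bin1 cohort no gene of the 41 was called. Bin1KO placebo against WT placebo mice gave 0 calls by edgeR, with 14 genes at an unadjusted p under 0.05 (12 higher, 2 lower) and 4 calls by DESeq2 (Aurka, Mki67, Prc1 and Top2a). Over all 14841 genes 2.61% were called by edgeR, and the DESeq2 count over all genes is in the closing section. The share of all genes at an unadjusted p under 0.05 is not given. Over the 41 the median log2 fold change was 0.59, against 0.01 over all genes, and 34 were positive. When only these 2 groups were fitted, 5 genes were called, the same 4 and Foxm1.

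Aurka had the smallest p and was lower, with 4.33, 3.72, 5.86 and 5.94 CPM in WT placebo mice 5 to 8 and 2.52, 2.35, 3.54 and 2.53 CPM in Bin1KO placebo mice 1 to 4 (log2 fold change of −0.85, SE 0.24, adjusted p by edgeR = 0.0656). The groups did not overlap. Mki67 had 2.38, 0.835, 1.09 and 0.994 CPM and 1.60, 4.99, 3.61 and 5.30 CPM (log2 fold change of 1.5, SE 0.49, adjusted p by edgeR = 0.110), where Bin1KO mouse 1 lay within the WT range. Top2a had 1.40, 0.766, 0.768 and 0.542 CPM and 1.42, 4.12, 1.99 and 4.66 CPM (log2 fold change of 1.74, SE 0.56, adjusted p by edgeR = 0.106). Here the lowest Bin1KO mouse was just above the highest WT mouse. Foxm1 had 0.867, 0.348, 0.416 and 0.452 CPM and 1.04, 1.96, 1.36 and 1.44 CPM (log2 fold change of 1.36, SE 0.52, adjusted p by edgeR = 0.158), also without overlap. Kif11 had 3.02, 1.60, 1.5 and 2.08 CPM and 3.40, 3.22, 2.85 and 4.85 CPM (log2 fold change of 0.78, SE 0.34, adjusted p by edgeR = 0.204), with overlap. Bub1 had 0.363, 0, 0 and 0.0904 CPM and 0.148, 1.06, 0.411 and 0.533 CPM, with no read in WT placebo mice 6 and 7.

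Prc1 and Bub1b also lay higher and Mcm2 lower in Bin1KO placebo mice without overlap, and none of these passed the test. Ccnb2 had 0.923, 0.731, 0.416 and 0.603 CPM in WT placebo and 0.592, 2.41, 1.27 and 2.02 CPM in Bin1KO placebo mice. Nusap1 had 1.06, 0.835, 0.640 and 0.603 CPM and 0.473, 1.71, 0.665 and 1.23 CPM. In both genes Bin1KO placebo mouse 1 lay below the highest WT mouse. The log2 fold change was 0.82 ± 0.41 (SE) for Cdc20, 1.11 ± 0.55 for Hmmr and 0.49 ± 0.36 for Anln. Cdc20 had 0.643, 0.522, 0.480 and 0.542 CPM in WT placebo and 0.503, 1.58, 0.918 and 1.06 CPM in Bin1KO placebo mice. Hmmr had 0.112, 0.209, 0.0320 and 0.151 CPM and 0.355, 0.612, 0.127 and 0.293 CPM. Anln had 1.76, 1.53, 2.08 and 0.753 CPM and 1.21, 2.80, 1.87 and 2.80 CPM. In these 3 genes the groups overlapped. E2f1 had 1.15, 0.661, 1.25 and 1.15 CPM and 1.24, 2.74, 1.46 and 1.81 CPM, at 0.75 ± 0.40. None of these was called. Bin1KO placebo mouse 1 was the lowest of its group for 28 of the 42 genes.

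None of the 11 replication genes passed the test. Pcna had 6.46, 6.72, 7.42 and 8.11 CPM in WT placebo and 6.89, 8.08, 5.57 and 8.95 CPM in Bin1KO placebo mice. Rrm1 had 32.2, 41.3, 34.3 and 34.8 CPM and 32.4, 27.4, 34.8 and 20.9 CPM. Mcm3 had 3.33, 2.33, 3.97 and 3.44 CPM and 3.29, 4.34, 5.35 and 3.83 CPM. These 3 genes had log2 fold changes of 0.04, −0.30 and 0.36, none called. Ccnd1 had 15.3, 7.48, 10.2 and 11.9 CPM in WT placebo and 8.31, 8.50, 17.4 and 16.8 CPM in Bin1KO placebo mice. Cenpa had 3.97, 3.58, 3.07 and 4.70 CPM and 3.31, 4.09, 3.42 and 3.14 CPM. Their log2 fold changes were 0.18 and −0.13. Ube2c had 3.86, 12.1, 35.7 and 20.7 CPM in WT placebo and 22.6, 11.8, 10.5 and 6.55 CPM in Bin1KO placebo mice, with wide spread in both groups.

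Of the macrophage markers 3 of 8 rose (Adgre1, 2.14, and Cd68, 2.58), and the 8 summed to 67.3, 56.1, 62.7 and 43.3 CPM in WT placebo and 127, 190.3, 126 and 260.2 CPM in Bin1KO placebo mice, without overlap. Myog rose by 2.26 and Pax7 fell by 1.42 among 8 satellite cell and myoblast markers. Sox9 (1.94) and Pvalb (−1.12), of chondrocyte and muscle fiber markers, were also called, as was Calcr of the osteoclast markers, with 3 reads in all Bin1KO placebo mice and 67 in WT mice, and by edgeR no fibroblast, endothelial, erythroid, osteoblast or tendon marker was (2, 0, 0, 0 and 1 by DESeq2, and 5, 1, 2, 0 and 2 at an unadjusted p under 0.05). Calcr again went against its list, whose sums were 9.12, 8.18, 9.7 and 7.65 CPM in WT placebo and 14.7, 17.0, 13.6 and 34.7 CPM in Bin1KO placebo mice. Without reads in WT mice were Nkg7, Elane, Ms4a3, Camp, Bglap2 and Mepe, and in Bin1KO placebo mice Elane, Ctsg, Ms4a3, Camp, Rhag, Ibsp, Bglap2, Mepe and Sost. The part of macrophages and other cells in the values above was not tested.

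Tamoxifen in Bin1KO mice also gave 0 calls by edgeR, with 8 genes at an unadjusted p under 0.05 (1 higher, 7 lower) and 2 calls by DESeq2, Ccnb2 and Kif11. Over all 14841 genes 3.13% were called by edgeR, with the DESeq2 count in the closing section, and the share at an unadjusted p under 0.05 is not given. The median log2 fold change of the 41 genes was −0.41, against −0.0007 over all genes, and 33 were negative.

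Kif11 had 3.40, 3.22, 2.85 and 4.85 CPM in Bin1KO placebo and 1.92, 2.06, 1.55 and 0.585 CPM in Bin1KO tamoxifen mice (log2 fold change of −1.19, SE 0.34, adjusted p by edgeR = 0.0685). The groups did not overlap. Ccnb2 had 0.610, 0.607, 0.0776 and 0.548 CPM in the treated mice (log2 fold change of −1.64, SE 0.51, adjusted p by edgeR = 0.0890). Bub1 had 0.174, 0.0607, 0 and 0 CPM (log2 fold change of −2.31, SE 0.82, adjusted p by edgeR = 0.128), with no read in treated mice 3 and 4. Mki67 had 1.40, 2.85, 1.47 and 0.439 CPM and Top2a had 1.48, 2.55, 1.24 and 0.183 CPM in the treated mice. In both, mouse 2 was the highest and mouse 4 the lowest, and the groups overlapped. Their log2 fold changes were −1.29 ± 0.49 and −1.12 ± 0.55 (SE). Foxm1 had 1.31, 0.880, 0.621 and 0.0731 CPM, with mouse 1 the highest. E2f1 had 0.828, 2.37, 0.854 and 0.621 CPM, with mouse 2 the highest. Nusap1 had 0.915, 0.940, 0.582 and 0.0731 CPM and Cdc20 had 0.523, 1.06, 0.388 and 0.402 CPM. Hmmr had 0.218, 0.546, 0.0776 and 0.292 CPM and Anln had 1.18, 2.15, 3.10 and 2.30 CPM. These 4 genes had log2 fold changes of −0.64, −0.70, −0.22 and 0.01, none called. Aurka had 5.05, 3.0, 4.77 and 3.07 CPM, at 0.53 ± 0.24. Of the replication genes, Pcna had 6.14, 6.10, 5.59 and 4.64 CPM, Rrm1 had 29.6, 31, 36.4 and 29.0 CPM and Mcm3 had 3.05, 5.10, 3.14 and 1.68 CPM. Ccnd1 had 12.7, 15.4, 8.88 and 5.01 CPM and Cenpa had 2.53, 4.0, 2.13 and 3.03 CPM. These 5 genes had log2 fold changes of −0.39, 0.13, −0.36, −0.28 and −0.24 and did not pass the test. Ube2c had 13.0, 9.80, 35.8 and 34.3 CPM.

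Bin1KO tamoxifen mouse 2 was the highest of its group for 27 of the 42 genes, and mouse 4 the lowest for 18. Mouse 2 was also the only treated Bin1KO mouse with reads of osteoblast and osteocyte markers above the level of the placebo groups (1.87, 220.0, 1.51 and 0.731 CPM summed in mice 1 to 4). The macrophage sums were 127, 130.3, 47.7 and 50.8 CPM, with mice 1 and 2 at the level of the 2 lowest Bin1KO placebo mice and mice 3 and 4 at that of WT mice. Of the 8 macrophage markers 0 were called by edgeR, 6 had an unadjusted p under 0.05 and 4 were called by DESeq2. The part of either in these values was not tested. Without mouse 2, Kif11, Mki67 and Prc1 were called and the median log2 fold change was −0.67. Of markers, Pvalb (1.33) and Calcr (79 reads in all treated mice and 3 in placebo mice) rose and Cd79b, a B-cell gene and the only lymphocyte marker tested, fell by 2.15. Hemgn, Mepe, Elane, Ctsg and Ms4a3 were without reads. Against WT placebo mice, Bin1KO tamoxifen mice had 0 calls by edgeR and by DESeq2, 1 gene at an unadjusted p under 0.05 and a median log2 fold change of 0.10, while 0.849% of all genes were called.

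The models were compared with each other through a fit of all 28 mice, as differences of differences within cohorts. For the disease effect (Dnm2SL minus Bin1KO), 0 of the 41 genes were called by edgeR and by DESeq2 and 3 had an unadjusted p under 0.05, Ube2c, Pcna and Kif11, with log2 differences of 2.31, 0.44 and 1.0. Among all 16036 genes 0.312% were called. For the effect of tamoxifen in disease mice (Dnm2SL minus Bin1KO) 0 were called by edgeR and 3 by DESeq2, beside 1.71% of all genes. Here 15 of the 41 had an unadjusted p under 0.05, all with the larger value in Dnm2SL mice, and the median difference was 0.81 (0.01 over all genes). The share of all genes at that unadjusted threshold is not given. Prc1 had the smallest p (log2 difference 2.35 ± 0.72, SE, edgeR adjusted p = 0.0639), followed by Foxm1 (1.86 ± 0.61) and Ccnb2 (2.01 ± 0.68). Without Bin1KO tamoxifen mouse 2, 8 genes were called, and without Dnm2SL placebo mouse 4, 1 gene with a median of 1.21. Shares of all genes called in these fits are not given. Model and library protocol change together in this difference and cannot be told apart.

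**Figure D5:**
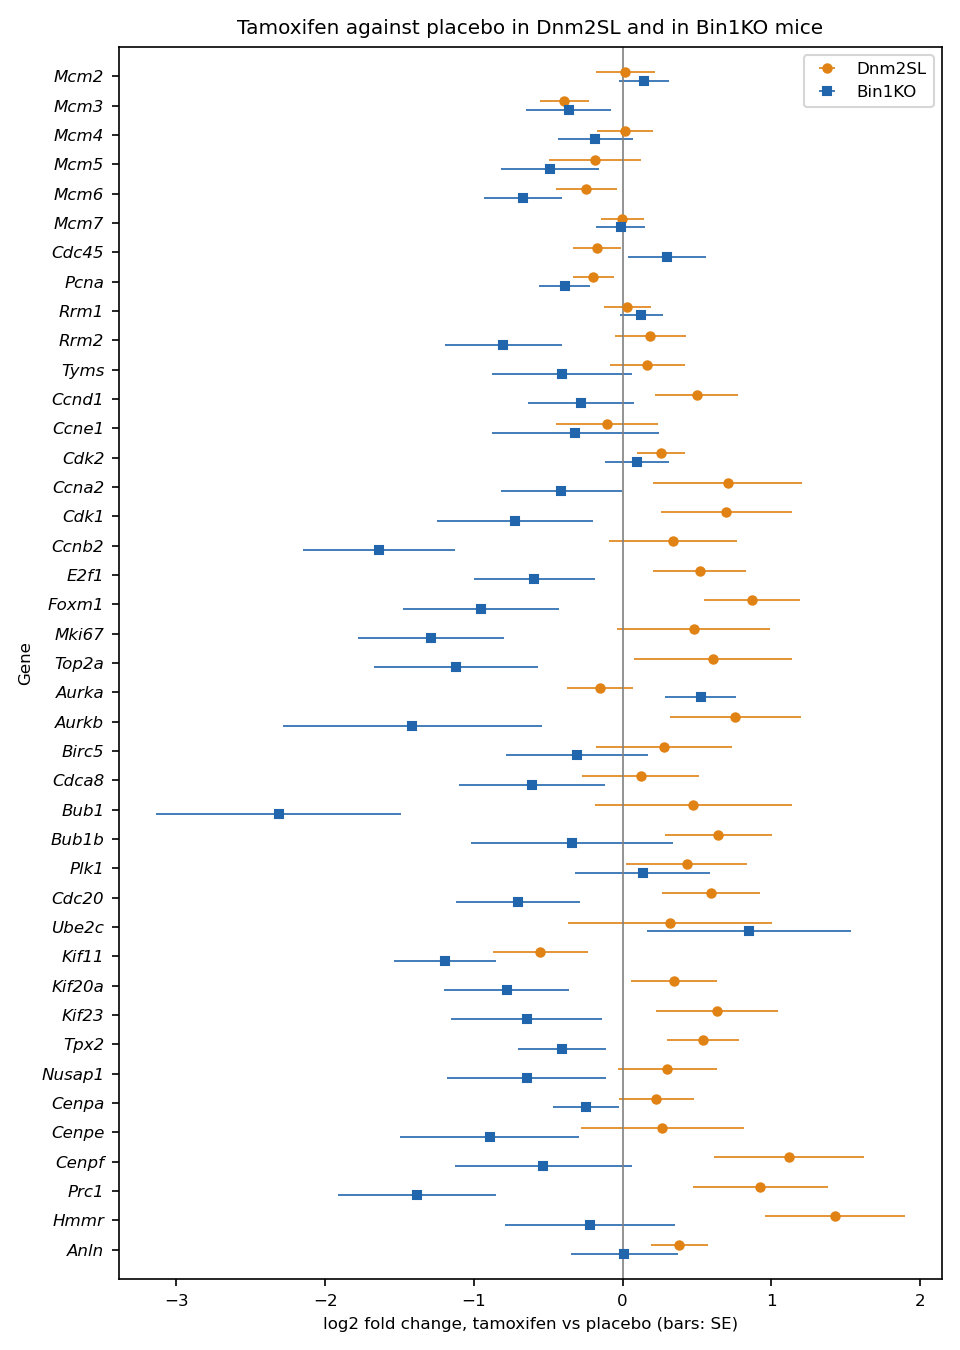
Log2 fold change of tamoxifen against placebo in Dnm2SL mice and in Bin1KO mice for each of the 41 tested genes, with bars of 1 SE, from the separate fits of the cohorts. Most genes lie above 0 in Dnm2SL mice (32 of 41) and below 0 in Bin1KO mice (33 of 41), and none was called in either.

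Further genes of the same pathways were counted from lists taken from textbook knowledge. Of all 15439 genes tested in the Dnm2 cohort, 15.8% were higher and 11.9% lower in WT tamoxifen mice. In Dnm2SL placebo mice 12.1% were higher and 9.81% lower, and for tamoxifen in Dnm2SL mice 8.27% were called. In the Bin1 cohort 2.61% of all genes were called in Bin1KO placebo mice and 3.13% under tamoxifen. Counts near these shares do not set a list apart. Of 33 further mitosis genes tested in the Dnm2 cohort, 20 rose and 1 fell in WT tamoxifen mice, with a median log2 fold change of 1.23. Pbk, a mitotic kinase (log2 fold change of 2.66, SE 0.41, adjusted p by edgeR = 5.02e-04), and Plk4, the kinase of centriole duplication (log2 fold change of 1.1, SE 0.21, adjusted p by edgeR = 0.00176), had the smallest p. In Dnm2SL placebo mice 3 of the 33 rose, among them Pbk (1.59 ± 0.41) and the kinetochore gene Spc25 (1.07 ± 0.33), and in Dnm2SL tamoxifen against placebo mice 1, the microtubule gene Ckap2 (1.44 ± 0.39). Of 27 tested in the Bin1 cohort, 0 were called by edgeR in Bin1KO placebo mice (3 by DESeq2, 8 at an unadjusted p under 0.05) and 0 under tamoxifen (1 by DESeq2, 3 at an unadjusted p under 0.05). Of 25 further replication genes, 7 rose and 1 fell in WT tamoxifen mice. The one with the smallest p that rose was Hells, a chromatin helicase (1.27 ± 0.34), and the one that fell was Gmnn, geminin, the inhibitor of origin licensing (−0.90 ± 0.19). Gmnn also fell in Dnm2SL placebo mice (−0.71 ± 0.19), where 2 of the 25 rose.

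Dtl rose in both models and was lower in the tamoxifen mice of each. It encodes the substrate receptor of the ubiquitin ligase that removes Cdt1 and p21 in S phase. Its levels were 0.375, 0.170, 0.316 and 0.268 CPM in WT placebo, 3.22, 2.83, 1.40 and 5.03 CPM in Dnm2SL placebo and 1.07, 0.877, 0.883 and 1.24 CPM in Dnm2SL tamoxifen mice. The log2 fold change was 3.21 ± 0.39 for Dnm2SL against WT placebo (edgeR adjusted p = 7.24e-05) and −1.56 ± 0.36 for tamoxifen in Dnm2SL mice (edgeR adjusted p = 0.0168). In the Bin1 cohort it had 0.308, 0.209, 0.224 and 0.422 CPM in WT placebo, 1.83, 2.64, 0.728 and 6.07 CPM in Bin1KO placebo and 0.174, 0.212, 0.388 and 0.512 CPM in Bin1KO tamoxifen mice. The log2 fold changes were 3.02 ± 0.54 and −2.90 ± 0.54 (edgeR adjusted p = 0.0136 and 0.0122). Dtl was the only one of the 25 replication genes called in the Bin1 cohort. In WT mice with tamoxifen it had 0.523, 1.14, 0.377 and 0.518 CPM.

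Of 12 further G1 cyclins, kinases and E2F factors, 4 rose in Dnm2SL placebo mice, with E2f2 (1.51 ± 0.19) and E2f8 (1.55 ± 0.37) at the smallest p. In WT tamoxifen mice Ccnd2, cyclin D2, rose by 1.37 ± 0.33. In Dnm2SL mice under tamoxifen Ccnd2 rose by 1.1 ± 0.33 and E2f2 fell by 0.97. In the Bin1 cohort 0 of the 12 were called by edgeR in Bin1KO placebo mice (0 by DESeq2, 3 at an unadjusted p under 0.05) and 0 under tamoxifen (1 by DESeq2, 2 at an unadjusted p under 0.05).

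Single inhibitors of the cell cycle rose in the same mice. Of 17 inhibitor and DREAM genes tested in the Dnm2 cohort, 3 rose in WT tamoxifen mice and none fell, beside 15.8% and 11.9% of all genes. In Dnm2SL placebo mice 3 rose and 1, the pocket protein gene Rbl2 (−0.59 ± 0.09), fell, beside 12.1% and 9.81% of all genes. The counts of rises do not set this list apart from all genes. Cdkn1a, which encodes the kinase inhibitor p21, had 31.7, 13.0, 16.8 and 17.1 CPM in WT placebo, 43.5, 57.6, 82.4 and 44.6 CPM in WT tamoxifen and 195, 204, 105 and 169.9 CPM in Dnm2SL placebo mice. Its log2 fold changes were 1.52 ± 0.31 and 3.09 ± 0.33 (edgeR adjusted p = 0.00272 and 3.49e-05). Cdkn2a, the gene of p16 and p19ARF, had 0.0101, 0, 0 and 0 CPM in WT placebo and 0.663, 1.14, 0.424 and 0.759 CPM in WT tamoxifen mice (edgeR adjusted p = 8.00e-04). This is 1 read against 102 over the groups, a ratio of 175 after division by library size with a 95% exact binomial interval of 30.7 to 6985 for counting error only. In Dnm2SL tamoxifen mice it had 0.460, 1.24, 1.44 and 0.0309 CPM, against 0.0225, 0.0960, 0 and 0.0791 CPM in Dnm2SL placebo mice (log2 fold change of 3.0, SE 0.68, adjusted p by edgeR = 0.0154). Cdkn1c, the inhibitor p57, rose under tamoxifen in Dnm2SL mice (1.45 ± 0.28) and in Bin1KO mice (log2 fold change of 0.84, SE 0.14, adjusted p by edgeR = 0.00588), where it was the only call among the 16 tested. In Bin1KO placebo mice 0 of the 16 were called by edgeR and 2 by DESeq2, with 3 at an unadjusted p under 0.05.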

How the data were processed

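RNA-seq libraries of TA muscle from 28 mice were made with a stranded poly(A) kit. The authors deposited 1 table of raw read counts per cohort, from which all values here were computed. The submitters' processing notes name bcl2fastq 2.20.0.422, cutadapt 1.10, Bowtie 1.2.2, STAR 2.5.3, HTSeq 0.6.1p1 and mm39, and the strand setting and the handling of reads with several matches are not given in the sources used here. A symbol was found for 52083 of the identifiers in each cohort, no column was left unmapped, and 4 lines of the Bin1 table that name no gene (22.0% to 30.8% of its reads) were left out.

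CPM values are reads of a gene divided by the TMM-scaled library size of the mouse. Each cohort was fitted alone in edgeR 4.0.16 (R 4.3.3, robust quasi-likelihood, TMM, filterByExpr, prior count 2), the 28 mice together for differences between models, and a call is a Benjamini-Hochberg adjusted p under 0.05 over all genes tested. DESeq2 1.42.0 and the other alternatives are in the closing section. Counts at an unadjusted p under 0.05 are given without the share of all genes at that threshold, so they are not set against a background. The fits were tested on simulated data. Depth was 15586333 to 109710886 reads per mouse in the Dnm2 cohort and 24671835 to 35136327 in the Bin1 cohort, and reads of mitochondrial genes made up 13.6% to 25.7% and 7.86% to 11.6% of them. Intervals and floors cover counting error only, since PCR copies were not marked. Of 42 pairs of mice within groups none agreed within sampling noise (lowest chi-square per gene 14.1).

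The 42 genes and the lists were chosen with earlier results of these data known. Values in every mouse were given for Mki67 and Top2a, for the gene of each role with the highest mean CPM and for the 3 genes with the smallest p in each of 5 comparisons. Of each further list, the 2 called genes with the smallest p in a comparison and all genes at 0 reads were named, apart from results that are not reported here. Prc1, Tyms, Rrm2, Ccne1, Ccna2, Cdk1 and other called genes outside this rule were named after their values were seen. The motifs searched for were also chosen with results known. Lin54, of the DREAM complex, was not analysed here. Promoters, start sites and exon lengths are of GRCm38 (RefSeq GRCm38.p6, GENCODE M21), not of mm39, and were matched to the counts by symbol or identifier.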

Additional observations from a re-analysis of the deposited data

Results flagged for a closer look

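A mouse far from the 3 others of its group (Dixon's criterion for 4 values at 95%) was found in 16 of 133 sets of 4 values tested, where chance gives about 1 in 20. No cause was tested for any of them, and no explanation is offered.

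Dnm2SL placebo mouse 4 held 7 of the 16 values. It had 7.60 CPM of Mki67 (the 3 others 1.18 to 1.78), 6.17 CPM of Top2a (1.01 to 1.68), 1.74 CPM of Nusap1 (0.576 to 0.679), 1.43 CPM of Foxm1 (0.586 to 0.724), 1.54 CPM of Ccnb2 (0.672 to 0.811) and 1.15 CPM of Bub1 (0 to 0.180). Its mean log2 CPM over the 42 genes was 1.52, against 0.48 to 0.55. The same mouse had 18.8 CPM of summed lymphocyte markers, against 1.34 to 1.69 CPM in the others.

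The remaining 9 values were spread over 8 mice. WT placebo mouse 4 had 13.8 CPM of Ube2c (2.97 to 3.79 in the others) and 3.51 CPM of Cenpa (2.52 to 2.69). WT tamoxifen mouse 2 had 3.06 CPM of Nusap1 (1.81 to 1.98). Aurka stood at 3.34 CPM in WT tamoxifen mouse 3 (2.97 to 3.03), at 4.57 CPM in Dnm2SL placebo mouse 3 (2.10 to 2.45) and at 3.54 CPM in Bin1KO placebo mouse 3 (2.35 to 2.53). In the Bin1 cohort Mki67 stood at 2.38 CPM in WT placebo mouse 5 (0.835 to 1.09), E2f1 at 2.37 CPM in Bin1KO tamoxifen mouse 2 (0.621 to 0.854) and Ccnb2 at 0.0776 CPM in Bin1KO tamoxifen mouse 3 (0.548 to 0.610).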

How the results depend on the processing

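Among the cell cycle genes given in every mouse by the rule above, no call changed direction under any alternative. Directions of the other calls were not compared. In these bulk libraries of 15586333 reads or more most mitosis genes lie near or under 1 CPM, so that small differences in them were not detectable. Size factors (RLE), library sizes without mitochondrial reads and thinning of all libraries to the smallest of the cohort left each count of cell cycle genes called within 1.5 times its value. Thinning did change which genes were called. For Dnm2SL against WT placebo mice it lost Ccne1, Pcna, Rrm2 and Tyms and added Birc5, Cdk1 and Prc1. For WT tamoxifen against WT placebo mice it lost 8 genes, among them Top2a, Ccna2, Ccnb2 and Bub1, and added Kif11 and Mcm7. For Dnm2SL tamoxifen against WT placebo mice it lost 8 and added Cenpe. For Dnm2SL against WT placebo mice the 6 calls became 3 without a filter on low counts, 11 with Xist as a covariate and 2 with the mice that had Xist reads only. For WT tamoxifen against WT placebo mice the 23 calls became 14 with a filter of more than 10 reads in 90% of mice, which tests fewer genes, and 9 with Xist mice only, which has fewer samples. For Dnm2SL tamoxifen against WT placebo mice the 22 became 14 without a filter, 13 with the Xist covariate and 2 with Xist mice only. Where no gene was called, DESeq2 gave 1 for tamoxifen in Dnm2SL mice, 4 for Bin1KO placebo mice, 2 for tamoxifen in Bin1KO mice and 3 for its difference between models. A fit of only the groups compared gave 5 for Bin1KO placebo mice, and no filter gave 1 for tamoxifen in Bin1KO mice. Apart from these constructions the cause was not tested. Thinning and both uses of Xist were chosen after seeing the data.

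Leaving out 1 mouse at a time gave 1 to 11 calls for Dnm2SL against WT placebo mice, 11 to 24 for WT tamoxifen, 0 to 5 for tamoxifen in Dnm2SL mice, 10 to 25 for Dnm2SL tamoxifen against WT placebo, 0 to 2 for Bin1KO placebo mice, 0 to 3 for tamoxifen in Bin1KO mice, and 0 to 8 for its difference between models. It gave 0 for the interaction, for Bin1KO tamoxifen against WT placebo mice and for the difference in disease effect. Shares of all genes called in each of these fits are not given. Counts of all genes called were compared with the main fit over all alternatives. Against WT placebo mice, those of Dnm2SL placebo, WT tamoxifen and Dnm2SL tamoxifen mice stayed within 1.5 times in 24 alternatives each. They fell further in 2 each. Counts of cell cycle genes called stayed within that range in 19, 22 and 20 alternatives. In the other comparisons a shift of a whole fit was not told apart from a shift of these genes. For Dnm2SL against WT placebo the count was 1 without Dnm2SL placebo mouse 4, 11 without Dnm2SL placebo mouse 3, 2 without WT placebo mouse 2 and 3 without WT placebo mouse 1. The median log2 fold change of Bin1KO tamoxifen against WT placebo mice, 0.10, was −0.26 without Bin1KO tamoxifen mouse 2, and no gene was called in either case. Among single genes, Kif11 in Dnm2SL placebo mice and Anln, Nusap1 and Foxm1 in WT tamoxifen mice were called in 27 of 27 fits, Mki67 and Aurka in WT tamoxifen mice in 22 and 21.

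The replicate numbers are shared by the groups, and a replicate block gave 5, 22, 0 and 20 calls in the 4 comparisons of the Dnm2 cohort, 0 for the interaction and 0 for tamoxifen in Bin1KO mice. The numbers do not pair the mice, since the correlation of same-numbered mice ran from −0.32 to 0.33 in the Dnm2 cohort and from −0.18 to 0.15 in the Bin1 cohort.

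Counts over all genes, which serve as the background, moved more outside the comparisons of the Dnm2 cohort with WT placebo mice. The 1277 genes called for tamoxifen in Dnm2SL mice became 814 without a filter, 30 in a fit of these groups alone, 843 with the replicate block, 801 after thinning, 515 with the Xist covariate and 79 with Xist mice only. With Xist mice only, the 3382 genes of Dnm2SL placebo, the 4273 of WT tamoxifen and the 4461 of Dnm2SL tamoxifen mice (each against WT placebo) became 1124, 2231 and 1099. The 40 of the interaction became 20 (RLE), 16 (stricter filter), 322 (DESeq2), 10 (replicate block), 17 (thinned) and 140 (Xist covariate). The 388 of Bin1KO placebo mice became 1149 (DESeq2) and 1458 (groups compared only), and the 464 of tamoxifen in Bin1KO mice 1166 (DESeq2), 122 (groups compared only) and 152 (replicate block). The 126 of Bin1KO tamoxifen against WT became 210 (no filter) and 521 (DESeq2), and the 50 and 274 of the differences between models became 228 (DESeq2) and 63 (no filter), 492 (stricter filter) and 1349 (DESeq2).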
